A study of Mus musculus with 6 samples.

Results

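The unfolded protein response and the integrated stress response were followed through 32 genes, found by symbol in the table of read counts. All 32 were present among its 30587 rows, and all 32 were among the 13249 rows with enough reads for a test. By the stress sensor they are best known to follow, 13 belong to the PERK-ATF4 branch, 9 to the IRE1-XBP1 branch and 10 to the ATF6 branch. The borders are a convention, since several chaperone genes respond to more than one branch.

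RNA was sequenced from dendritic cells grown out of the bone marrow of C57BL/6 mice, in 3 WT and 3 KO libraries, each genotype numbered 1 to 3. The WT genotype was Hif2afl/fl, with loxP-flanked alleles of the gene for the transcription factor HIF-2α (official symbol Epas1). The KO genotype was CD11c-Cre;Hif2afl/fl, which adds a Cre recombinase driven by the promoter of CD11c, a surface integrin of dendritic cells that some macrophages also carry. Both genotypes carried the floxed alleles, and all 6 cultures received dimethyloxalylglycine (DMOG) for 24 h and then α-galactosylceramide (α-GalCer) for 4 h. DMOG blocks the prolyl hydroxylases through which cells with oxygen remove the HIF α proteins, and α-GalCer is a glycolipid that CD1d presents to natural killer T cells. KO against WT was the only contrast, so an unstressed or untreated level of these genes was not analysed here. The sources used here do not give the age of the mice or say whether libraries of a genotype came from separate mice or cultures. The p-values therefore cover only the spread between libraries, which may be technical.

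The endoplasmic reticulum (ER) folds secreted and membrane proteins, and 3 sensors in its membrane respond when unfolded protein builds up. PERK phosphorylates the initiation factor eIF2α, which lowers general translation while favouring that of the transcription factor ATF4; kinases that sense amino acid shortage, haem shortage or double-stranded RNA act on the same factor, and the common output is called the integrated stress response. IRE1 splices the mRNA of Xbp1, and ATF6 is cut in the Golgi to release a transcription factor. XBP1 and ATF6 raise genes of folding, quality control and degradation in the ER, and the IRE1-XBP1 branch is known to be active in conventional dendritic cells. Read counts per gene do not tell spliced from unspliced Xbp1, and they show neither the cleavage of ATF6 nor the phosphorylation of PERK or eIF2α.

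Total counts ran from 14668641 to 17884160 per library. For Epas1 the WT libraries held 339, 352 and 349 reads and the KO libraries 175, 214 and 198, so every KO library was below every WT library (log2 fold change -0.98 ± 0.12 SE, edgeR adjusted p = 3.45e-05). In WT 2 a larger number of rows, 25408, held at least 1 read than in any other library (18763 to 22275). Of the dendritic cell markers, Itgax, which encodes CD11c, stood at 205 ± 16.4 CPM (read counts scaled to a common depth and corrected for composition) in WT and 179 ± 32.4 CPM in KO (SD, n = 3 each). Cd209a had only 3 to 9 reads per library. Of 8 such markers 7 were tested, 3 higher and 2 lower in KO. Ccr7, Zbtb46 and Flt3 were higher (log2 fold changes 0.55, 0.50 and 0.23), and Cd74 and H2-Ab1 were lower (-0.30 and -0.49). The summed level of the markers ran from 5754 to 5929 CPM in WT and from 5237 to 5904 CPM in KO. This sum joins changes in opposite directions. Over all genes tested, 13.8% were higher and 12% lower in KO. Of plasma cell markers, whose cells are known for high levels of ER stress genes, Sdc1 was 1.90-fold higher and made up most of a summed level of 183 to 196 CPM in WT and 309 to 359 CPM in KO, whereas Mzb1 counts were 0, 0 and 3 in WT and 0, 2 and 2 in KO. Macrophage markers, 4 of 8 tested genes higher and 0 lower, summed to 2079 to 2265 CPM in WT and 2304 to 2683 CPM in KO. Markers of plasmacytoid dendritic cells, 2 of 3 tested higher, summed to 178 to 212 and 371 to 374 CPM. Most of that sum was Bst2, which interferon also induces (122 ± 15.6 CPM in WT and 292 ± 4.33 CPM in KO). Tcf4 passed as well (log2 fold change 0.45, edgeR adjusted p = 0.00409), with every KO library above every WT library. Spib was at 49.8 ± 2.98 and 51.7 ± 5.03 CPM, and Siglech had 0 to 2 reads per library. Markers of mast cells and basophils, 3 of 4 tested higher, summed to 4.57 to 6.56 and 9.06 to 11.9 CPM. The part of these markers in the results below was not tested. Neutrophil markers summed to 26.2 to 39.6 and 29.1 to 46.3 CPM, with 1 of 4 tested higher, and no tested marker of T or B cells passed (1 tested of each). T cell markers summed to 1.54 to 2.14 and 1.66 to 2.19 CPM, B cell markers to 1.09 to 1.94 and 1.22 to 2.43, NK cell markers to 0.177 to 0.453 and 0.0548 to 0.237, and erythroid markers to 0.0647 to 0.414 and 0.232 to 0.767. In bulk RNA a change in the share of a cell type and a change of RNA per cell cannot be told apart.

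In the KO libraries 10 of the 32 genes rose and 3 fell (quasi-likelihood test of edgeR, adjusted by Benjamini-Hochberg over all 13249 genes, adjusted p under 0.05). These are 40.6% of the genes, against 25.8% of all genes tested. The difference from the background lay in the genes that rose, 31.2% against 13.8%, while 9.38% fell against 12% of all genes. The genes that rose were Ddit3, Sesn2, Psat1 and Shmt2 of the PERK-ATF4 branch, Syvn1, Derl1 and Dnajb11 of the IRE1-XBP1 branch, and Hyou1, Creld2 and Manf of the ATF6 branch. The genes that fell were the transcription factor genes Atf3 and Atf5 and the co-chaperone gene Dnajb9.

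All changes were small. The log2 fold changes ran from -0.43 to 0.59 with a median of 0.17, against -0.01 over all genes tested, and the median size of the change was 0.19 against 0.18. None of the 32 genes changed by 2-fold, which 4.25% of all tested genes did. All KO libraries were above all WT libraries in 15 of the 32 genes and below in 5, or 46.9% and 15.6%, against 20.5% and 20% of all genes tested (40.4% in either direction). The number that rose was 5 without WT 1 or KO 3 and 6 without WT 2 or WT 3, and the number that fell was 1 without WT 1. Fewer genes passed over the whole table in these fits too. In either direction they were 2340 without WT 1, 2116 without KO 3, 2399 without WT 2 and 3085 without WT 3, against 3412 in the main fit. Ddit3, Psat1, Sesn2, Hyou1 and Atf3 passed the test in the same direction in all 16 alternative fits, and the other 8 genes lost the call in at least 1 of them.

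**Figure D1:**
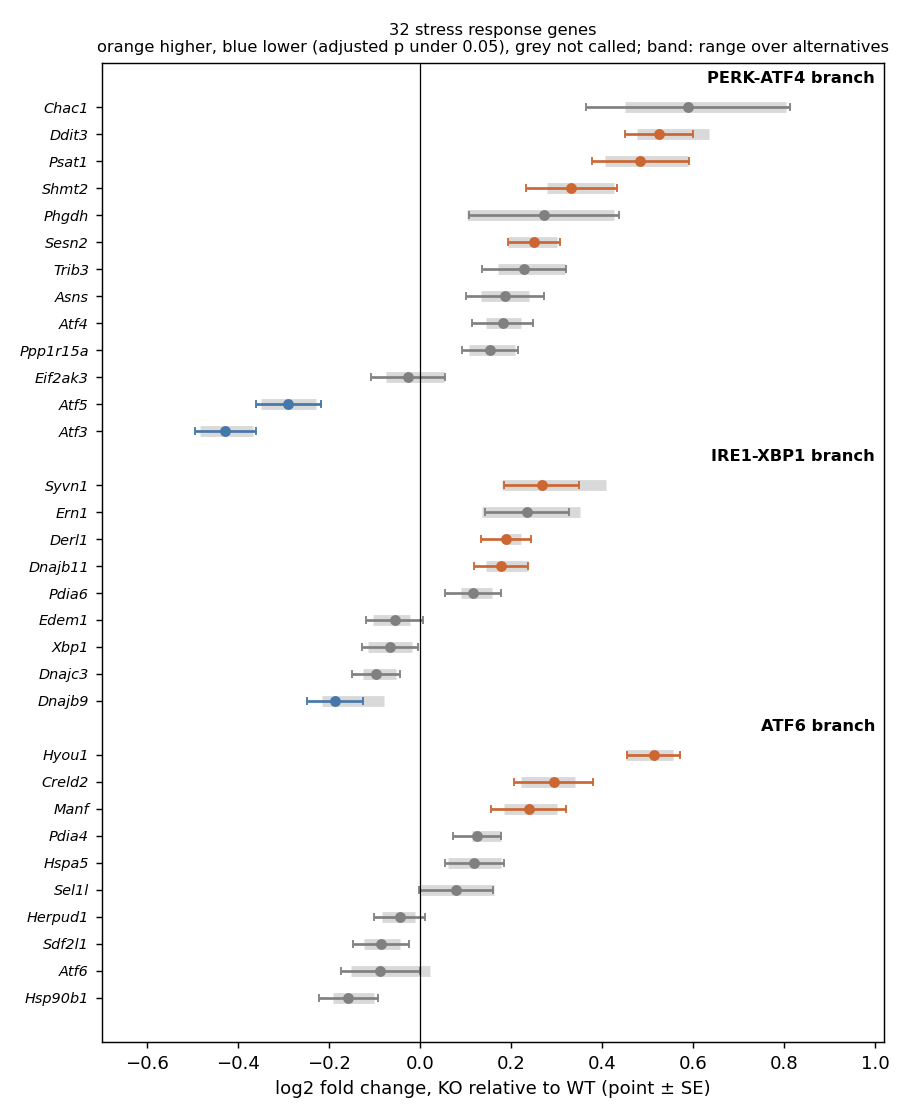
Log2 fold change of each of the 32 genes in KO relative to WT (x axis) with its SE, grouped by branch, where orange genes rose, blue genes fell and grey genes did not pass, and the grey band is the range over 16 alternative fits. The points run from -0.43 for Atf3 to 0.59 for Chac1, which did not pass.

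Promoter letters are shown here because each branch is known by the elements its factors bind. RefSeq windows of 300 bases (250 before the start and 50 from the start on, GRCm38.p6, the assembly that mm10 names) were matched by symbol for 28 of the 32 genes. Hyou1, Manf, Derl1 and Atf6 had no window and were not searched, so their elements are not known here. The ER stress response element (ERSE), CCAAT and CCACG with 9 bases between them, was searched on both strands and found in 6 of the 28 genes (21.4%), against 0.137% of all 27025 genes with a window. Its variant ERSE-II, ATTGG and CCACG with 1 base between them, was in 2 of the 28 (7.14%) and in 0.0444% of all genes. The C/EBP-ATF element TGATGNAA, which ATF4 and its partners bind, was in 5 of the 28 (17.9%) and in 4.51% of all genes. The XBP1 element TGACGTGG was in none of the 28 and in 0.714% of all genes. A gene with more than 1 window was counted once. No match overlapped another. These matches are descriptions of letters, not of binding. The 32 genes were chosen as known genes of these branches, so the shares beside those of all genes are no result of these data. The ERSE matches follow, read in the direction of the element with the 10 fixed letters in capitals.

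Hspa5 ERSE: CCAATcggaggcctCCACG
Hsp90b1 distal ERSE: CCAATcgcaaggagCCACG
Hsp90b1 proximal ERSE: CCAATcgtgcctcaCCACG
Creld2 ERSE: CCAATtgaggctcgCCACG
Pdia6 ERSE: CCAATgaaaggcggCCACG
Dnajc3 ERSE: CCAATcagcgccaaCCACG
Syvn1 ERSE: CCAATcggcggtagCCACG
Herpud1 ERSE-II: ATTGGgCCACG
Dnajb11 ERSE-II: ATTGGcCCACG

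Counting the start as +1, the Hspa5 match lay at -65 to -47, that of Creld2 on the opposite strand at -126 to -108, and that of Syvn1 at -44 to -26. Hsp90b1 had a pair, at -212 to -194 and, on the opposite strand, at -107 to -89. The changes of these genes were not tested against each other. Creld2, Syvn1 and, with ERSE-II, Dnajb11 rose by log2 fold changes of 0.29, 0.27 and 0.18. Hspa5, Pdia6, Dnajc3, Hsp90b1 and Herpud1 did not pass, at 0.12, 0.12, -0.10, -0.16 and -0.04. The C/EBP-ATF element was in the windows of Atf3, Chac1, Trib3, Asns and Herpud1, of which Atf3 fell (-0.43) and Chac1, Trib3 and Asns did not pass (0.59, 0.23 and 0.19). The 250 bases before the start are given for 4 genes, Atf3 and Chac1, which share the C/EBP-ATF element, and Hspa5 and Creld2, which share ERSE, 5′ to 3′ on the gene's strand with the fixed letters in capitals.

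Atf3 (chr1:191183334-191183583, minus strand, C/EBP-ATF element): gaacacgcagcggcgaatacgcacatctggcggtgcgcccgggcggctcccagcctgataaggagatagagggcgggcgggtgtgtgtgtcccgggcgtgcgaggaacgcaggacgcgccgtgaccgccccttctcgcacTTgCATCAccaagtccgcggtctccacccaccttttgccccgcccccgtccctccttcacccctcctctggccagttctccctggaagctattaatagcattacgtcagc
Chac1 (chr2:119350992-119351241, plus strand, C/EBP-ATF element): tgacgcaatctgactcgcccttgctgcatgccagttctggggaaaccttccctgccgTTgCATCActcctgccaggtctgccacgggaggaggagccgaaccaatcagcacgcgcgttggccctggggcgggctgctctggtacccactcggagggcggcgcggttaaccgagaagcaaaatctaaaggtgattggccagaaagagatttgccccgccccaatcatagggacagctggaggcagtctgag
Hspa5 (chr2:34771840-34772089, plus strand, ERSE): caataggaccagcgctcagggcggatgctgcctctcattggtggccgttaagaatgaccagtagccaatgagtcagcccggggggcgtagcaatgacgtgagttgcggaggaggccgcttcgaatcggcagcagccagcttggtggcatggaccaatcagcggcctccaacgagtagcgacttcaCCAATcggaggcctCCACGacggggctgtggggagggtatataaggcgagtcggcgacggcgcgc
Creld2 (chr15:88819396-88819645, plus strand, ERSE): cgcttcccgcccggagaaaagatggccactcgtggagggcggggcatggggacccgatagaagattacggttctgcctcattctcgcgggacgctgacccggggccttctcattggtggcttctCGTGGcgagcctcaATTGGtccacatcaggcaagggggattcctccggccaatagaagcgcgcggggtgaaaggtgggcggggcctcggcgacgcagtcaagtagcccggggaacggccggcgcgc

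In Atf3 and Chac1 the element reads TGATGcAA on the opposite strand, at -110 to -103 and -193 to -186, so both sequences show its reverse complement in capitals. The GENCODE genes Atf3, Hspa5 and Chac1 reach further upstream than the RefSeq starts used for their windows, and Creld2 does not. The printed elements of Atf3 and Hspa5 therefore lie inside the GENCODE genes.

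The transcription factors of the PERK-ATF4 branch went in different directions. Ddit3, which encodes the stress-induced factor CHOP (chromosome 10, 127290774 to 127296288, plus strand, GENCODE annotation of mm10), was at 71.6, 60.9 and 58.7 CPM in WT 1, 2 and 3 and at 86.9, 94.3 and 94.2 CPM in KO 1, 2 and 3. All KO libraries were above all WT libraries, and Ddit3 rose 1.44-fold (log2 fold change 0.52 ± 0.07 SE, edgeR adjusted p = 0.000184), which was the highest fold among the genes that passed. Of its exon bases 6.13% also belong to a second annotation entry named Ddit3 on the same strand, and 3.97% lie in Mars on the other strand. How reads in either overlap were counted is not given in the sources used here. Atf3, encoding a repressor and activator induced by many stresses (chromosome 1, 191170296 to 191218039, minus strand), was at 272, 277 and 264 CPM in WT and 189, 217 and 198 CPM in KO. Here all KO libraries were lower, and Atf3 fell 1.35-fold (-0.43 ± 0.07, edgeR adjusted p = 0.000409). Atf5, encoding a factor that is translated under eIF2α phosphorylation as ATF4 is (chromosome 7, 44812256 to 44816658, minus strand), was at 51.0, 48.6 and 49.2 CPM in WT and 43.1, 37.2 and 41.3 CPM in KO. It fell 1.22-fold (-0.29 ± 0.07, edgeR adjusted p = 0.00936), a call lost without WT 1 (-0.26, edgeR adjusted p = 0.058; alternatives gave 0.00372 to 0.058).

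Atf4 itself had 248, 251 and 226 CPM in WT and 280, 259 and 283 CPM in KO. The groups did not overlap, but the log2 fold change of 0.18 ± 0.07 did not pass (edgeR adjusted p = 0.0639). It passed without KO 2 (0.22), with scaling to library size only (0.22), and at 0.18 by limma-voom, by the Wald test of DESeq2 or by a robust fit, with adjusted p between 0.0302 and 0.214 over the alternatives. Eif2ak3, the gene of PERK, was at 32.5 to 38.6 CPM in WT and 32.8 to 35.5 CPM in KO, and the genotypes overlapped (-0.03 ± 0.08, edgeR adjusted p = 0.847). Its sign turned without WT 3 (0.052), without KO 3 (0.0083) and when scaled to library size only (0.0057).

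Of 4 effector genes of the branch, Sesn2, Ppp1r15a, Trib3 and Chac1, only Sesn2 passed. Sesn2, which encodes sestrin 2, a stress-induced inhibitor of the growth regulator mTORC1 (chromosome 4, 132492032 to 132510501, minus strand), was at 74.6, 79.1 and 79.5 CPM in WT and 87.9, 95.2 and 94.3 CPM in KO. It rose 1.19-fold (0.25 ± 0.06, edgeR adjusted p = 0.00604), with no overlap between genotypes. Ppp1r15a, for GADD34, which leads a phosphatase to eIF2α and so ends the response, was at 116 to 121 CPM in WT and 122 to 137 CPM in KO, and did not pass (0.15 ± 0.06, edgeR adjusted p = 0.0818). It passed without KO 2 (0.21) and with scaling to library size only (0.19). Trib3, for a pseudokinase that restrains ATF4, had 33.4, 29.8 and 34.4 CPM in WT and 33.4, 40.8 and 40.3 CPM in KO. KO 1 lay among the WT libraries there, and the difference did not pass (0.23 ± 0.09, edgeR adjusted p = 0.0863) except when KO 1 (0.32) or both KO 1 and WT 2 (0.26) were left out, or when low counts were kept (0.24). Chac1, for an enzyme that degrades glutathione, was the least abundant of the 32 genes, with counts of 28, 40 and 29 in WT and of 55, 48 and 60 in KO. Its log2 fold change of 0.59 was the highest of the 32 but had an SE of 0.22 at this depth and did not pass (edgeR adjusted p = 0.0712), here or in any of the 16 alternatives.

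Among enzymes of amino acid synthesis and one-carbon supply that ATF4 is known to raise, Psat1 and Shmt2 rose, and Phgdh and Asns did not pass. Psat1, for the aminotransferase in serine synthesis (chromosome 19, 15904678 to 15947337, minus strand), was at 18.1, 17.3 and 15.2 CPM in WT and 20.7, 24.0 and 26.2 CPM in KO, and rose 1.40-fold (0.48 ± 0.11, edgeR adjusted p = 0.00484). Shmt2, for the mitochondrial enzyme that takes a one-carbon unit from serine, was at 18.9, 17.4 and 18.5 CPM in WT and 20.0, 24.4 and 24.6 CPM in KO, and rose 1.26-fold (0.33 ± 0.10, edgeR adjusted p = 0.0266). Its groups did not overlap, but the call was lost without WT 1 (0.36), WT 2 (0.30), KO 2 (0.29) or KO 3 (0.28) and with the offset for GC content and length (0.28). Phgdh, for the first enzyme of serine synthesis, was at 6.22 to 6.68 CPM in WT and 6.08, 9.54 and 7.71 CPM in KO 1, 2 and 3, and did not pass (0.27 ± 0.17, edgeR adjusted p = 0.257). Asns, for asparagine synthetase, was at 23.4 to 27.3 CPM in WT and 28.2 to 30.9 CPM in KO. It did not pass either, although its groups did not overlap (0.19 ± 0.09, edgeR adjusted p = 0.134).

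**Figure D2:**
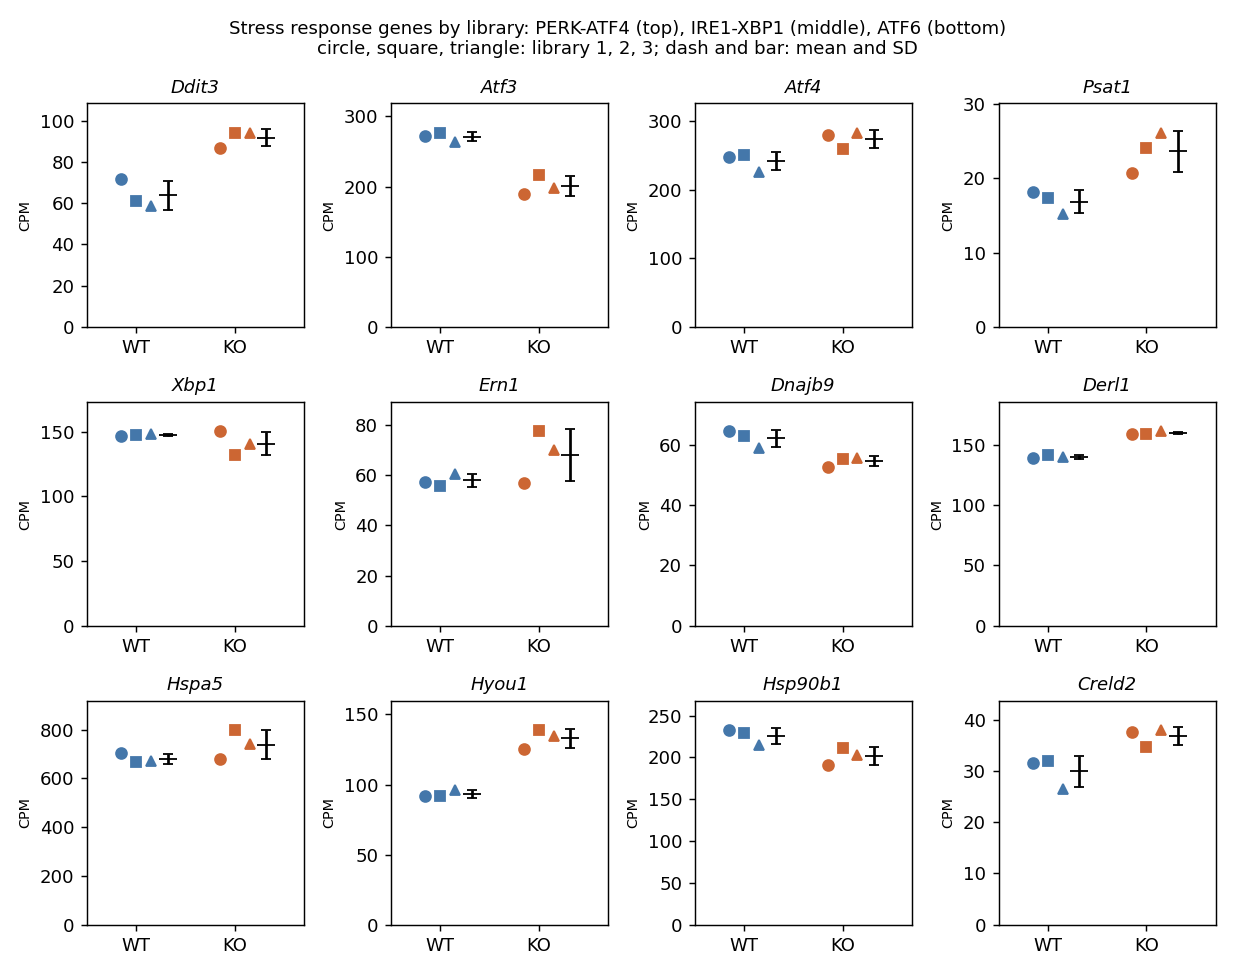
CPM (y axis, from 0) of 12 of the genes in each WT and KO library, with the mean and SD beside the points, in rows for the PERK-ATF4, IRE1-XBP1 and ATF6 branches. Ddit3 and Hyou1 are higher in every KO library and Atf3 is lower in every KO library, while Xbp1 and Hspa5 overlap between genotypes.

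The core of the IRE1-XBP1 branch did not pass the test. Xbp1 (chromosome 11, 5520659 to 5525893, plus strand) was at 147, 147 and 148 CPM in WT and 150, 132 and 140 CPM in KO. KO 1 was above and KO 2 and KO 3 were below the WT libraries (-0.07 ± 0.06, edgeR adjusted p = 0.476). Ern1, the gene of IRE1α, was at 57.2, 55.8 and 60.6 CPM in WT and 57.0, 77.4 and 70.0 CPM in KO. KO 1 again lay among the WT libraries and the others above them. The difference did not pass (0.23 ± 0.09, edgeR adjusted p = 0.0802), but it did when KO 1 (0.35) or both KO 1 and WT 2 (0.32) were left out, when low counts were kept (0.25) and when scaled to library size only (0.27).

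Among the degradation genes of the branch Derl1 and Syvn1 rose and Edem1 did not pass. Herpud1 and Sel1l, degradation genes placed in the ATF6 branch, did not pass either. Derl1, for derlin 1, a part of the channel through which misfolded proteins leave the ER (chromosome 15, 57869502 to 57892448, minus strand), was at 139, 142 and 140 CPM in WT and 159, 159 and 161 CPM in KO. The groups were tight and apart, and Derl1 rose 1.14-fold (0.19 ± 0.05, edgeR adjusted p = 0.0216), though the call was lost without WT 1 (0.19), WT 2 (0.20) or KO 3 (0.18). Syvn1, for the ubiquitin ligase HRD1 of that channel (chromosome 19, 6046576 to 6053712, plus strand), was at 49.6, 56.8 and 53.1 CPM in WT and 55.9, 67.3 and 68.8 CPM in KO. It rose 1.20-fold (0.27 ± 0.08, edgeR adjusted p = 0.0304) although KO 1 was below WT 2, and the call was lost without WT 1 (0.23), WT 3 (0.27), KO 2 (0.23) or KO 3 (0.21) and with the GC and length offset (0.18). Edem1, for a lectin that marks glycoproteins for degradation, was at 370 to 392 CPM in WT and 355 to 380 CPM in KO and did not pass (-0.06 ± 0.06, edgeR adjusted p = 0.555).

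The ER co-chaperone genes of the J-domain family differed from each other. Dnajb11, for a cofactor that brings unfolded proteins to BiP (chromosome 16, 22857845 to 22879634, plus strand), was at 107, 108 and 98.7 CPM in WT and 112, 121 and 122 CPM in KO, and rose 1.13-fold (0.18 ± 0.06, edgeR adjusted p = 0.0421). Dnajb9, for a cofactor that binds IRE1 and keeps it inactive (chromosome 12, 44205559 to 44210326, minus strand), was at 64.3, 62.8 and 58.9 CPM in WT and 52.5, 55.4 and 55.6 CPM in KO, and fell 1.14-fold (-0.19 ± 0.06, edgeR adjusted p = 0.0386). The genotypes did not overlap in either gene, yet both calls were lost in several fits. That of Dnajb11 was lost without WT 1 (0.20), WT 2 (0.20), WT 3 (0.15), KO 2 (0.16) or KO 3 (0.16), with the Wald test (0.18) and with the replicate block (0.18). That of Dnajb9 was lost in 11 of 16 alternatives, among them without WT 1 (-0.15), WT 2 (-0.18), KO 1 (-0.16), KO 2 (-0.20) or KO 3 (-0.20), with scaling to library size only (-0.15) and with the GC and length offset (-0.08). Dnajc3, for the cofactor P58IPK, was at 96.4 to 103 CPM in WT and 93.3 to 94.7 CPM in KO (-0.10 ± 0.05, edgeR adjusted p = 0.201). Pdia6, for a disulfide isomerase that acts on IRE1 and PERK, was at 223 to 236 CPM in WT and 242 to 259 CPM in KO (0.12 ± 0.06, edgeR adjusted p = 0.191). These last genes did not overlap between genotypes and did not pass.

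In the ATF6 branch Hyou1, Creld2 and Manf rose, and the genes of the main chaperones did not pass. Hyou1, for an ER chaperone of the HSP110 type that exchanges nucleotide on BiP and is also induced by hypoxia (chromosome 9, 44379490 to 44392369, plus strand), was at 91.5, 91.9 and 96.2 CPM in WT and 125, 139 and 135 CPM in KO. It rose 1.43-fold (0.51 ± 0.06, edgeR adjusted p = 2.42e-05), the lowest adjusted p among the 32 genes. Creld2, for a secreted disulfide isomerase of the ER (chromosome 15, 88819646 to 88826683, plus strand), was at 31.6, 31.9 and 26.5 CPM in WT and 37.6, 34.8 and 37.9 CPM in KO, and rose 1.23-fold (0.29 ± 0.09, edgeR adjusted p = 0.0239). Its groups were apart, with the call lost without WT 3 (0.22) or KO 3 (0.27). Manf, for a secreted factor that binds BiP (chromosome 9, 106838312 to 106891979, minus strand), was at 39.7, 40.1 and 34.8 CPM in WT and 48.3, 45.8 and 41.1 CPM in KO, and rose 1.18-fold (0.24 ± 0.08, edgeR adjusted p = 0.0483). Its call was lost without WT 1 (0.28), WT 2 (0.27), WT 3 (0.18), KO 1 (0.19) or KO 2 (0.23), without WT 2 and KO 1 (0.22), and with the Wald test or limma-voom (0.24 in each). Of the Manf exon bases 4.14% also lie in Dcaf1 and 4.71% in 4930524O07Rik, both on the other strand.

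Hspa5, the gene of BiP, the main ER chaperone that holds the sensors inactive (chromosome 2, 34771970 to 34777547, plus strand), was at 703, 668 and 669 CPM in WT and 679, 797 and 739 CPM in KO. KO 1 lay within the WT libraries and the others above them, and the difference did not pass (0.12 ± 0.07, edgeR adjusted p = 0.207), except without KO 1 (0.18, edgeR adjusted p = 0.0382; alternatives gave 0.0382 to 0.568). Hsp90b1, for the chaperone GRP94 (chromosome 10, 86690209 to 86705509, minus strand), went the other way, at 232, 229 and 214 CPM in WT and 191, 212 and 203 CPM in KO. All KO libraries were lower, but the difference did not pass (-0.16 ± 0.06, edgeR adjusted p = 0.0909), and 10.3% of its exon bases lie in the pseudogene 1810014B01Rik on the other strand. Pdia4, for a disulfide isomerase, was at 78.2 to 82.7 CPM in WT and 87.0 to 89.4 CPM in KO and did not pass (0.13 ± 0.05, edgeR adjusted p = 0.104), though it did with scaling to library size only (0.16) and with the GC and length offset (0.18).

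The other ATF6-branch genes overlapped between genotypes. The sensor gene Atf6 was at 76.6 to 93.8 CPM in WT and 69.7 to 84.7 CPM in KO (-0.09 ± 0.09, edgeR adjusted p = 0.506), and its sign turned without WT 3 (0.021). Herpud1, for a membrane protein that gathers the degradation machinery, had 78.7 to 82.8 CPM in WT and 75.6 to 80.9 CPM in KO, and Sdf2l1, for a BiP cofactor, 64.2 to 67.6 and 58.9 to 65.6 CPM. Sel1l, for the adaptor of HRD1, had 167 to 197 CPM in WT and 174 to 209 CPM in KO. None of these 4 passed in any fit. No gene of this branch fell (edgeR; 1 at an unadjusted p under 0.05, and 0 with the Wald test or limma-voom).

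By branch, 4 of 13 PERK-ATF4 genes rose and 2 fell, 3 of 9 IRE1-XBP1 genes rose and 1 fell, and 3 of 10 ATF6 genes rose. The shares that rose were 30.8%, 33.3% and 30%, against 13.8% of all genes tested, and the shares that fell in the first 2 branches, 15.4% and 11.1%, were near the 12% of all genes. The median log2 fold changes were 0.23, 0.12 and 0.10. With 1 library left out at a time, the number that rose ran from 3 to 5, from 0 to 4 and from 1 to 3, with 0 in the IRE1-XBP1 branch without WT 1 or KO 3, 1 there without WT 2, WT 3 or KO 2, and 1 in the ATF6 branch without WT 3. The branches were not tested against each other.

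KO 1 differed from the other KO libraries in many of these genes. It was the KO library nearest to the WT mean in 18 of the 32 genes, against 9 for KO 2 and 5 for KO 3, while over all 13249 tested genes the numbers were 5208 for KO 1, 4237 for KO 2 and 3806 for KO 3. It lay within the WT range in 8 of the 32 (25% against 32.7% of all tested genes), and KO 2 and KO 3 in 3 each (9.38% against 29.5% and 30.9%). The summed level of the 32 genes was 3824, 3775 and 3770 CPM in WT and 3822, 4071 and 3971 CPM in KO, so that KO 1 stood at the level of WT 1. For the PERK-ATF4 genes the mean of log2(CPM + 1), centred on each gene's mean over the 6 libraries, was 0.01 in KO 1, 0.11 in KO 2 and 0.13 in KO 3, and -0.07, -0.08 and -0.10 in WT 1, 2 and 3. The same mean for the IRE1-XBP1 genes was -0.021, 0.060 and 0.053 in KO and -0.032, -0.024 and -0.037 in WT. For the ATF6 genes it was 0.0045, 0.104 and 0.038 in KO and -0.045, -0.055 and -0.046 in WT. By this mean KO 1 was above every WT library in each branch. KO 1 had the second highest number of rows with a read (22275), and the part of this in the difference was not tested. Without KO 1, 12 of the 32 genes rose and 2 fell, and without WT 2 and KO 1, 11 rose and 2 fell. The number that rose over all genes tested also grew, from 1826 in the main fit to 1992 without KO 1. In either direction 3412 genes passed in the main fit, 3586 without KO 1 and 2909 without WT 2 and KO 1. Of these 53.5%, 55.3% and 55.6% rose.

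**Figure D3:**
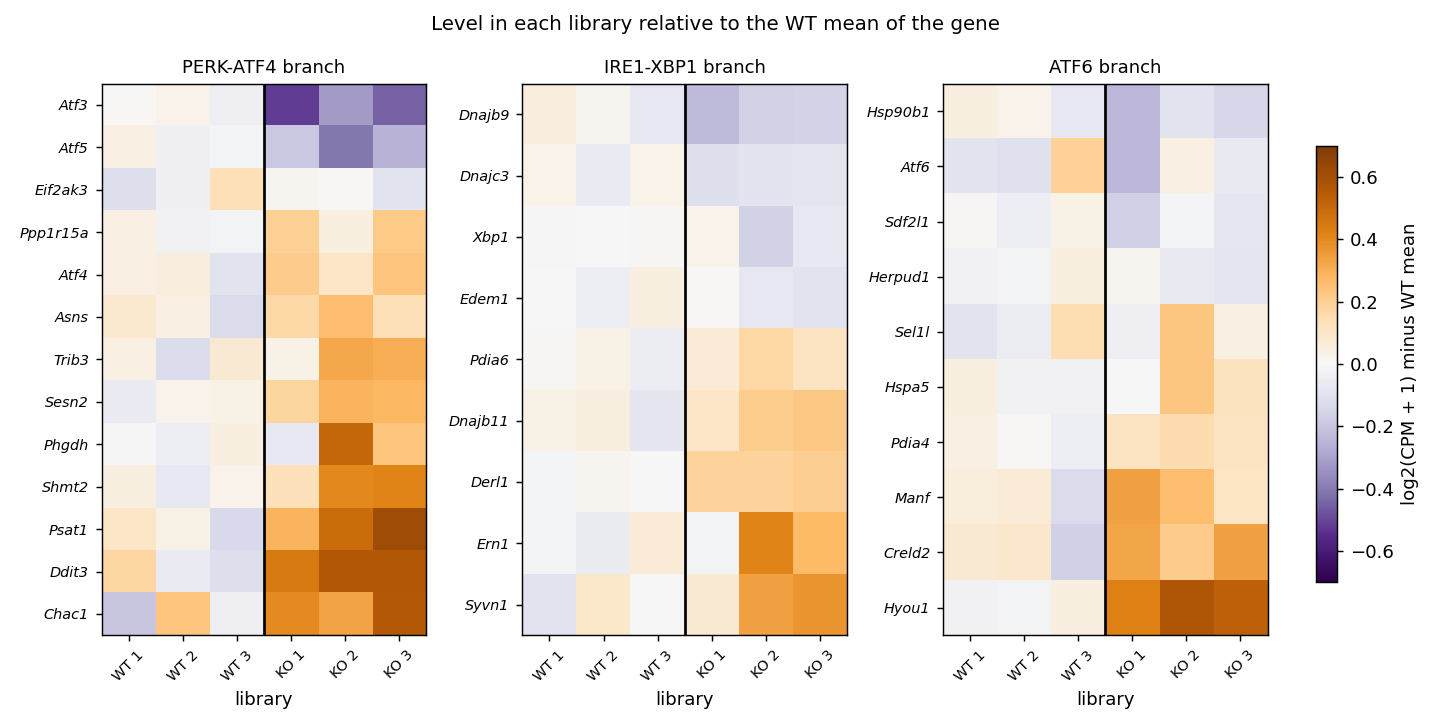
Level of each gene in each library as log2(CPM + 1) minus the WT mean of that gene (colour; orange above, purple below), with genes in rows by branch and libraries in columns. KO 1 is paler than KO 2 and KO 3 for Trib3, Phgdh, Ern1, Syvn1 and Hspa5, while Ddit3, Hyou1 and Atf3 differ from WT in all KO libraries.

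Scaled by exon length, as CPM per kilobase of exon (RPKM), the 32 genes covered a wide range of levels in WT. Hspa5 was highest at 161 ± 4.75 RPKM, followed by Atf3 at 126 ± 3.08 and Atf4 at 102 ± 5.68 (SD, n = 3 each). In KO, where Atf3 had fallen, the order of the transcription factors was Atf4 at 116, Atf3 at 93.4 and Ddit3 at 53.6 RPKM. Pdia6, Sdf2l1, Edem1 and Hsp90b1 lay close together between 61.6 and 55.9 RPKM in WT, and each overlapped the next within 1 SD. The sensors were low, with 8.94 ± 1.06 RPKM for Atf6, 7.08 ± 0.30 for Ern1 and 5.83 ± 0.52 for Eif2ak3, and Chac1 was lowest at 1.27 ± 0.29. The genes that rose ran from Derl1 at 42.1 to Psat1 at 3.96 RPKM in WT. None of the genes above Derl1 in WT level passed as higher.

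Other genes of the pathway, from lists of related function, were read in the same fit, in which 13.8% of all genes rose and 12% fell. Of 30 tested further ATF4 targets 10 rose (33.3%) and 2 fell (6.67%), with a median log2 fold change of 0.11. Aars, for alanyl-tRNA synthetase, rose 1.45-fold from 154 ± 5.48 to 224 ± 19.3 CPM (SD), Slc7a5, for the light chain of a leucine transporter, by 0.68 on the log2 scale from 14.2 ± 0.869 to 22.7 ± 2.18 CPM, and Mthfd2, for a mitochondrial one-carbon enzyme, 1.38-fold from 130 ± 10.5 to 179 ± 16.5 CPM (edgeR adjusted p = 9.76e-05, 0.00025 and 0.000768). Stc2, for the secreted glycoprotein stanniocalcin 2, which is also a hypoxia-induced gene, fell 3.10-fold from 3.09 ± 0.336 to 0.991 ± 0.0891 CPM (edgeR adjusted p = 0.000264). These 4 passed in all 16 alternatives. Of Aars exon bases 14.3% also belong to Exosc6 on the same strand, so part of its reads may not be its own.

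Among genes that set eIF2α phosphorylation and its effect, 4 of 11 rose (36.4%) and none fell (1 lower at an unadjusted p under 0.05 in edgeR, 0 with the Wald test or limma-voom), with a median of 0.08. Eif2ak2, for PKR, the eIF2α kinase that senses double-stranded RNA and is itself interferon-induced, was at 23.8, 18.3 and 21.3 CPM in WT and 51.0, 69.2 and 56.5 CPM in KO. It rose 2.78-fold (1.47 ± 0.12, edgeR adjusted p = 8.76e-07), with every KO library above every WT library. Eif2b2 and Eif2b4, for subunits of the exchange factor that phosphorylated eIF2α inhibits, rose 1.25-fold and 1.28-fold (edgeR adjusted p = 0.00228 and 0.00584). Ppp1r15b, for CReP, the constitutive counterpart of GADD34 that likewise leads a phosphatase to eIF2α, rose 1.19-fold (0.25), a call lost without WT 1 (0.24), WT 2 (0.21), KO 2 (0.20) or KO 3 (0.27).

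Of 19 further tested folding genes 1 rose (5.26%) and 3 fell (15.8%), near or below the shares of all genes, with a median of -0.03. Ero1l, for the oxidase that drives disulfide formation and a known hypoxia-induced gene, fell 2.35-fold from 606 ± 8.91 to 258 ± 17.5 CPM (edgeR adjusted p = 2.05e-08). P4hb, for protein disulfide isomerase, which Ero1l oxidises, fell 1.24-fold from 798 ± 19.6 to 641 ± 18.5 CPM (edgeR adjusted p = 0.000916). Ero1lb, for the second oxidase, fell 1.17-fold (-0.22; lost without WT 1, -0.21, WT 2, -0.24, WT 3, -0.20, or KO 3, -0.21), and Calr, for calreticulin, rose 1.18-fold (0.24; lost without WT 1, 0.23, KO 2, 0.18, or KO 3, 0.24).

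In ER-associated degradation 4 of 16 genes rose (25%) and 1 fell (6.25%), with a median of 0.06. Nploc4 and Ube2g2, for a cofactor of the extraction motor p97 and a ubiquitin-conjugating enzyme, rose 1.19-fold and 1.21-fold (edgeR adjusted p = 0.00514 and 0.00538) and passed in every fit. Of Ube2g2 exon bases 6.83% also belong to Gm49325 and 3.46% to Mir1930 on the same strand. Os9 and Erlec1, for related lectins that deliver glycoproteins to HRD1, went apart. Os9 rose 1.17-fold (0.23; lost without WT 1, 0.24, WT 2, 0.20, KO 2, 0.21, or KO 3, 0.21), whereas Erlec1 fell 1.29-fold (-0.37; lost without KO 3, -0.31).

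Of 20 translocation and secretory genes 4 rose (20%, against 13.8% of all genes) and 1 fell (5%), with a median of -0.04. Sec61a1, Srpr and Sec23b, for the translocation channel, the receptor of the signal recognition particle and a vesicle coat protein, rose by log2 fold changes of 0.26, 0.24 and 0.22, and Sec62, for a channel partner, fell (-0.21). Sec62 also lost it without both WT 2 and KO 1 (-0.21). Each of these 4 lost the call without WT 1 (0.24, 0.24, 0.21 and -0.20), WT 2 (0.23, 0.24, 0.21 and -0.21) or KO 3 (0.23, 0.21, 0.21 and -0.20), and the first 3 also without KO 2 (0.20, 0.19 and 0.19).

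Of 9 other sensors and processing enzymes 2 rose (22.2%) and none fell (2 lower at an unadjusted p under 0.05 in edgeR, 1 with the Wald test and 1 with limma-voom; median 0.01). Atf6b, for the paralog of ATF6, was at 82.9, 79.9 and 79.5 CPM in WT and 98.4, 110 and 114 CPM in KO and rose 1.33-fold (0.41 ± 0.06, edgeR adjusted p = 0.000304). Nfe2l1, for an ER-anchored factor that raises proteasome genes, rose 1.16-fold (0.22), lost without WT 1 (0.24), WT 2 (0.17), KO 2 (0.21) or KO 3 (0.19) and with the GC and length offset (0.15). Of transcripts that IRE1 is known to cut, 2 of 5 had enough reads. Hgsnat, for a lysosomal acetyltransferase, fell 1.54-fold from 234 ± 10.9 to 153 ± 3.83 CPM (edgeR adjusted p = 7.17e-06), and Scara3 had a log2 fold change of -0.25, so that none rose (0 at an unadjusted p under 0.05 in edgeR and 0 with the Wald test or limma-voom). The mitochondrial unfolded protein response, which ATF5 is known to serve, had 1 of 10 genes higher (10%, against 13.8% of all genes) and none lower (0 at an unadjusted p under 0.05 in edgeR, 0 with the Wald test or limma-voom), with a median of 0.01. The gene that rose was Htra2, for a mitochondrial protease (1.21-fold, 0.27, lost without KO 3, 0.25). Of its exon bases 25.6% lie in Aup1 and 18.2% in Loxl3, both on the other strand. Aup1 rose as well (0.17, edgeR adjusted p = 0.0454), and the part of its reads in the Htra2 call was not tested.

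**Figure D4:**
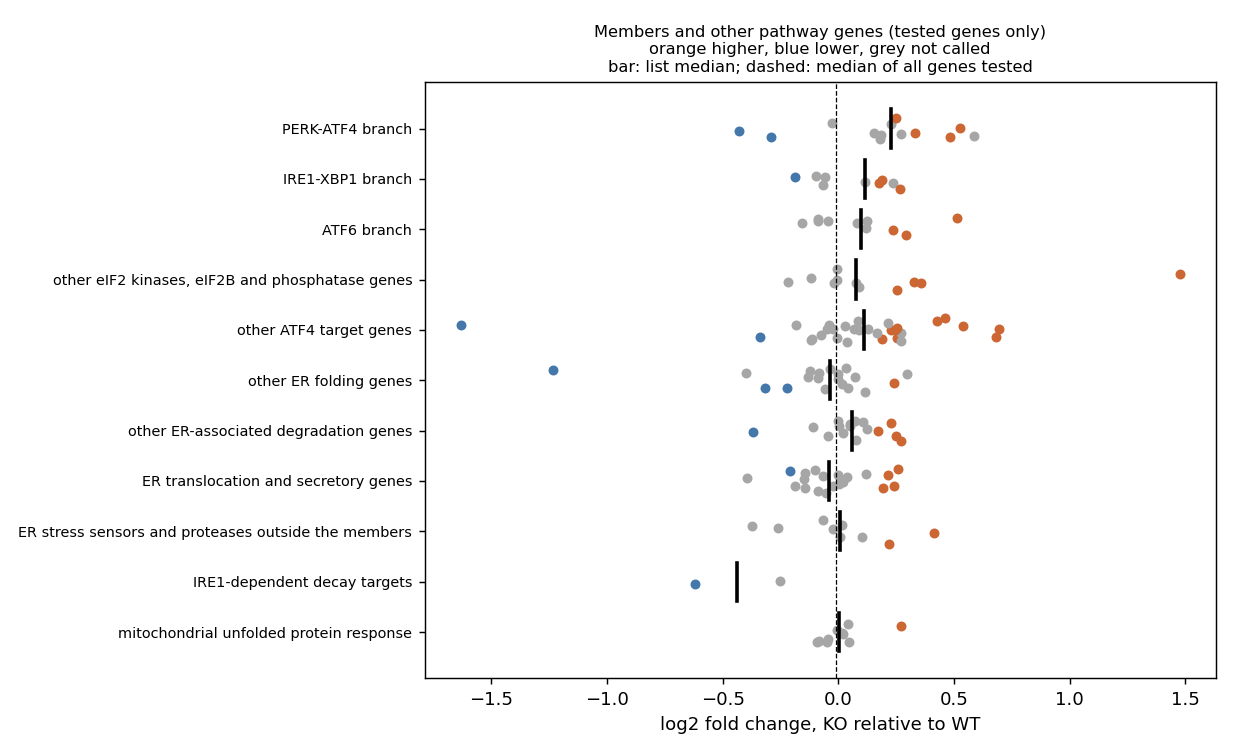
Log2 fold change in KO relative to WT (x axis) of each tested gene (points) in the 3 branches and in the lists of other pathway genes (rows), with a bar at each list's median and a dashed line at the median of all genes tested, -0.01. Eif2ak2 at 1.47 lies far to the right, and Stc2 at -1.63 and Ero1l at -1.23 far to the left, of all 32 genes described above.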

How the data were processed

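The deposited table holds raw read counts per gene symbol, which the authors did not normalize. Per the submitters' processing notes reads were placed on mm10, and TopHat2, HISAT2, HTSeq and DESeq2 are listed without role or order, with annotation and strand setting not given in the sources used here. The 32 genes and all lists were chosen with earlier results of these data known. All 32 genes, Epas1, and up to 4 called genes of each further list by lowest p (or the lowest p where none was called) are named. Other genes named are from the marker lists or overlaps, except Scara3, which was chosen after its value was seen.

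Of 30587 rows, filterByExpr (minimum count 10) kept 13249. Counts were scaled by TMM and tested with edgeR 4.0.16 (quasi-likelihood F test) in R 4.3.3, on genotype alone. The procedure was run on simulated counts, drawn independently per library with the dispersions that edgeR fitted here. Such counts hold no deviation of a whole library, so they cannot show how one would affect the calls. The SE is the log2 fold change divided by the square root of F. Alternatives used limma 3.58.1, DESeq2 1.42.0, other scalings, filters and libraries, and were written with earlier results known. Groups of 3 allow no exact permutation p under 0.1. Replicates differed beyond sampling noise (chi-square per degree of freedom of at least 4.1). The value was 17.9 and 19.2 for WT 2 against WT 1 and WT 3, and 5.0 for WT 1 against WT 3. It was 13.2 and 7.27 for KO 1 against KO 2 and KO 3, and 4.1 for KO 2 against KO 3. Exon lengths, GC content and coordinates are from GENCODE, and promoters from RefSeq.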

Additional observations from a re-analysis of the deposited data

How the results depend on the processing

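Under the 16 alternatives the 5 genes Ddit3, Psat1, Sesn2, Hyou1 and Atf3 kept their direction and call, 8 called genes lost the call in at least 1, and 6 of the 19 uncalled genes (Atf4, Ern1, Hspa5, Pdia4, Ppp1r15a and Trib3) gained one. With 1 library left out at a time, all genes that rose ran from 1182 to 1992 and those that fell from 945 to 1622, and of the 32 genes 5 to 12 rose and 1 to 3 fell. By branch, 3 to 5 rose and 1 to 2 fell for PERK-ATF4, 0 to 4 and 0 to 1 for IRE1-XBP1, and 1 to 3 and 0 for ATF6. The 1 IRE1-XBP1 gene that fell, Dnajb9, gave 0 with the Wald test, the GC and length offset, low counts kept, library size alone as scaling, and both WT 2 and KO 1 left out. Scaling to library size only raised the share of higher calls over all genes to 62.3% from 53.5%, and 14 of the 32 genes rose and 2 fell.

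The replicate number as a block gave 9 genes higher and 2 lower of the 32, and 0 lower in the IRE1-XBP1 branch against 1. Over all genes tested, 3247 passed in either direction with the block against 3412 in the main fit, of which 53.6% and 53.5% rose. The replicate numbers share no stated origin, and same-numbered libraries did not deviate together (correlations of 0.01, -0.11 and 0.08 for numbers 1, 2 and 3), so the block was not used. Over all WT and KO pairs the correlations ran from -0.21 (WT 3 and KO 1) to 0.18 (WT 2 and KO 1). A shared origin across numbers was not tested. Signs turned only for genes that did not pass, Eif2ak3 (0.0057 when scaled to library size only, and -0.076 to 0.052 with 1 library left out) and Atf6 (-0.15 to 0.021, above 0 without WT 3). Depth limits Chac1, with 28 to 60 reads per library.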
